A study of Danio rerio with 9 samples.

Results

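Ventricles of 2 zebrafish lines that both bear on autophagy were compared directly with each other, *Tg(cmlc2:tfeb)* against *mtor* xu015/+. The *Tg(cmlc2:tfeb)* fish express *tfeb* from the *cmlc2* promoter, which is active in cardiomyocytes, and the *mtor* xu015/+ fish are heterozygous for a mutant allele of *mtor*. The comparison rests on all samples of both lines, 6 of the 9 in the series, and on the genes that carry a name and a chromosome in the deposited table and had enough counts to be tested, 18865 of the 21216 genes tested and of the 30628 listed. The remaining 3 samples were WT fish, which carried neither alteration. By their labels all fish were 6 months old, 5 ventricles were pooled for each library, and every genotype had 3 libraries, which the methods call biological replicates. The columns of the WT libraries carry a tag of 9 months in the table, whereas their labels give 6 months.

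Mechanistic target of rapamycin (mTOR) is a kinase that drives protein synthesis and growth when nutrients are plentiful and holds autophagy back. Transcription factor EB (TFEB) is among its substrates: phosphorylated TFEB stays in the cytoplasm, and when mTOR is less active TFEB enters the nucleus and switches on genes of lysosomes and autophagy, the route by which cells digest their own proteins and organelles. Less mTOR and more TFEB are therefore both used to raise autophagy in the heart. The comparison asks in which genes and pathways 2 such lines nevertheless differ.

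The values are the authors' estimated counts per gene, rounded and normalized between libraries with TMM, and are called normalized counts below. They can be compared between libraries for a gene. Whether they were corrected for gene length is not given in the sources used here, so counts of different genes do not rank their transcripts. Total estimated counts lay between 35440229 and 45273885 per library. Genes were called differentially expressed (DEGs) where edgeR's quasi-likelihood test, fitted over all 9 libraries, gave a Benjamini-Hochberg adjusted p below 0.05 and the lines differed at least 1.5-fold. Log2 fold changes (log2FC) are *Tg(cmlc2:tfeb)* minus *mtor* xu015/+, each with its standard error (SE), so that a positive value is higher in *Tg(cmlc2:tfeb)*. Values of 3 libraries are given in the order of their replicate numbers.

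The manipulated genes were examined first. The normalized count of *tfeb* (ENSDARG00000010794, chromosome 11, 22287954 to 22361306) was 1733, 2126 and 1586 in the *mtor* xu015/+ libraries and 22103, 26435 and 8783 in the *Tg(cmlc2:tfeb)* libraries. All 3 transgenic libraries stood above the others, and replicate 3 was the lowest of them (log2FC 3.40, SE 0.36, adjusted p = 0.00029). Without that library the log2FC was 3.74. The count does not separate transcripts of the transgene from those of the native gene.

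For *mtor* (ENSDARG00000053196, chromosome 8, 46077609 to 46321918), the count was 6165, 7294 and 5389 in the libraries labelled *mtor* xu015/+ and 1899.6, 1904 and 1871 in *Tg(cmlc2:tfeb)*, so the lower counts were those of the transgenic line (log2FC -1.73, SE 0.29, adjusted p = 0.00275). In WT it was 6601, 3970.3 and 2522, a range that overlapped the libraries labelled *mtor* xu015/+ but not the transgenic ones. The *mtor* count therefore does not check the label of the heterozygous libraries, and it does not tell transcripts of the mutant allele from those of the normal one.

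Of the 18865 named and placed genes tested, 2863 were DEGs, which is 15.2%. They split evenly in direction, with 1452 higher in *Tg(cmlc2:tfeb)*, 7.7% of the genes tested, and 1411 lower, 7.48%. The median log2FC over all these genes was 0.0052, and the median of its absolute value was 0.28. Changes of at least 4-fold were found for 328 DEGs that were higher and 310 that were lower. The 6 libraries did not overlap between the lines at 7883 genes, 41.8% of those tested, and at 2832 of the 2863 DEGs. Names that only denote a sequenced clone belonged to 724 DEGs, 18.9% of such genes tested, against 14.2% of the other genes.

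**Figure D1:**
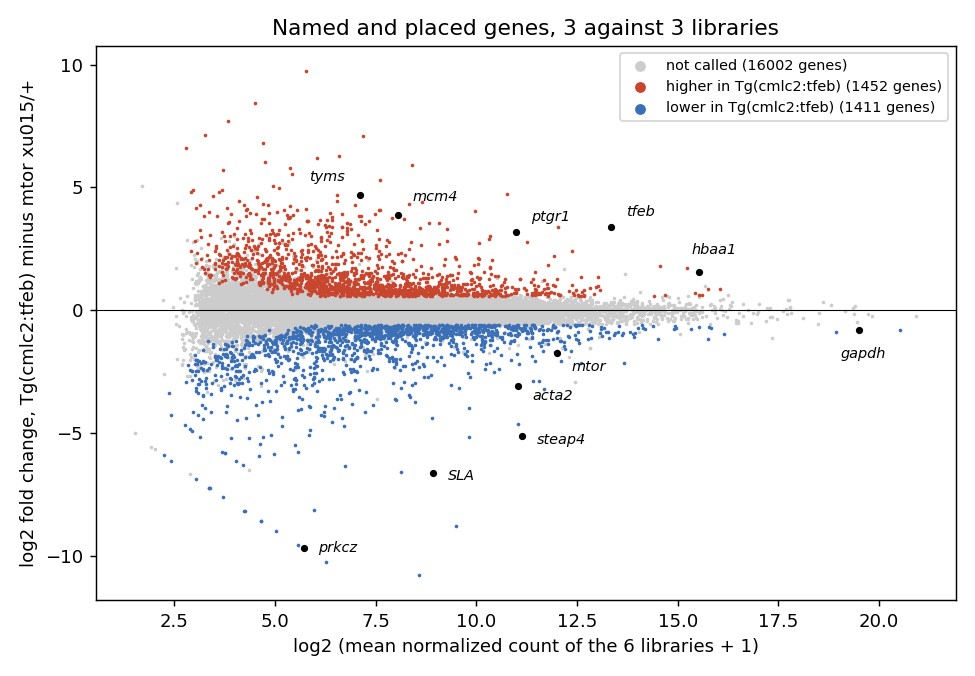
Each point is a named gene with a chromosome, plotted by its mean normalized count over the 6 libraries (x, log2) and its log2FC, *Tg(cmlc2:tfeb)* minus *mtor* xu015/+ (y). The 1452 higher and 1411 lower DEGs are coloured, and the lower ones include *prkcz*, with no count in the transgenic libraries, and *gapdh*, among the genes with the highest counts.

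The gene with the smallest p among those higher in the transgenic line was *ptgr1* (ENSDARG00000024877, chromosome 7, 24375070 to 24390879), which encodes prostaglandin reductase 1, an enzyme of eicosanoid and aldehyde breakdown. Its normalized count was 366, 481 and 369.9 in *mtor* xu015/+ and 3341, 3647 and 4001 in *Tg(cmlc2:tfeb)*, a 9.02-fold difference (log2FC 3.17, SE 0.13, adjusted p = 1.2e-06). In WT it was 430.2, 475 and 435, within the range of the *mtor* xu015/+ libraries.

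With clone names left out, replication and cell cycle genes made up 6 of the other 9 genes of that rank. These were *tyms*, *ccna2*, *mcm4*, *mcm5*, *dnmt1* and *mcm2*, and they are described with their lists below. The last 3 were *aars1*, *anxa6* and *mhc1uba*. Alanyl-tRNA synthetase, the product of *aars1*, charges alanine onto its tRNA, and its counts were 787, 889 and 802 in *mtor* xu015/+ against 2008, 2192 and 2231 in *Tg(cmlc2:tfeb)* (log2FC 1.38, SE 0.08, adjusted p = 1.6e-05). Annexin A6, a calcium-dependent membrane binding protein, rose 2.55-fold, from 4365, 4725 and 4847 to 11257, 11363 and 12875 (log2FC 1.35, SE 0.08, adjusted p = 1.9e-05). The spread within each line was small against these differences.

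Among genes lower in the transgenic line, *SLA* (ENSDARG00000100287, chromosome 16, 31542645 to 31547800) had the smallest p of all. It had 902, 1086 and 905 normalized counts in *mtor* xu015/+ and 10.3, 10.4 and 7.85 in *Tg(cmlc2:tfeb)* (log2FC -6.63, SE 0.15, adjusted p = 5.5e-08), against 896, 1013 and 966 in WT. The product of *acta2* (chromosome 12, 17100021 to 17116481) is smooth muscle actin. Its counts were 3778, 3838 and 3666 in *mtor* xu015/+ and 438, 414 and 489.8 in the transgenic libraries (log2FC -3.07, SE 0.13, adjusted p = 2.1e-06). For *steap4* (chromosome 16, 27734872 to 27749172), a membrane metalloreductase that handles iron and copper, 4375, 5273 and 3554 stood against 135, 104 and 139 (log2FC -5.13, SE 0.24, adjusted p = 3.7e-06). In these 3 genes WT and *mtor* xu015/+ libraries lay at the same level and the transgenic libraries far below.

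With clone names left out, 7 others were among the 10 lower genes with the smallest p. They were *st6galnac5b*, a sialyltransferase, *mindy4b*, *tg* (thyroglobulin), *clec19a*, a C-type lectin, *sult2st1*, a cytosolic sulfotransferase, *fahd2a* and *ly97.3*. Their log2FC ran from -4.64 for *sult2st1*, with 3121, 4732 and 4219 against 136, 181 and 168 counts, to -1.57 for *fahd2a*, with 1049.8, 1024 and 1191 against 378, 347 and 372. Each of these 10 genes also had an adjusted p below 0.05 between *Tg(cmlc2:tfeb)* and WT in the same direction, a comparison that shares the transgenic libraries.

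By size of change, the genes that rose most with a mean of at least 100 counts in the higher line were *adgrb1b*, *mapk8ip1a*, *cdh26.1*, *znf977* (ENSDARG00000087070) and *tyms*. The adhesion receptor gene *adgrb1b* had 1.11, 3.72 and 1.88 counts in *mtor* xu015/+ and 192, 188 and 179 in *Tg(cmlc2:tfeb)* (log2FC 6.27, SE 0.61, adjusted p = 0.0002). The scaffold of JNK signalling encoded by *mapk8ip1a* went from 4.42, 13.9 and 14.1 to 1158, 621 and 213, a wide spread within the transgenic line. For the cadherin gene *cdh26.1*, counts of 117, 118 and 143 stood against 4286, 4254 and 1444, and here too transgenic replicate 3 was the lowest of its line, as it was for *tfeb*.

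By the same rule, which leaves out clone names, the largest falls were at *prkcz*, *SLA*, *myrfl*, *steap4* and *cryaba*. Protein kinase C zeta, encoded by *prkcz* (chromosome 8, 17554313 to 17771755), had 78.5, 119.8 and 109.9 counts in *mtor* xu015/+, 90.03, 76.9 and 60.0 in WT and 0 in every transgenic library, so that it was at least 36.1-fold lower there when 3 counts per library are taken as the limit. Alpha B-crystallin, the small heat shock chaperone encoded by *cryaba*, fell from 251, 123 and 227 to 10.3, 4.35 and 7.85 (log2FC -4.72, SE 0.46, adjusted p = 0.0002). The counts of *myrfl* were 828, 599 and 227 against 5.98, 4.35 and 6.72, but its WT libraries ranged from 9.42 to 510.3, and limma-voom did not call it (adjusted p = 0.152). In all, 15 DEGs had no count in any transgenic library and 5 had none in any *mtor* xu015/+ library.

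Genes of DNA replication and mitosis held the largest shares of DEGs among the pathway lists. Cells duplicate their DNA after origins are licensed by the MCM helicase, copy it with polymerases and a supply of nucleotides, and then condense, align and part the chromosomes. Adult zebrafish cardiomyocytes can enter this cycle, and so can blood, endothelial and connective tissue cells of the ventricle. In bulk tissue, more cells of a type and more RNA per cell cannot be told apart. In 4 lists that cover these steps, 111 of 142 tested genes were DEGs that were higher in *Tg(cmlc2:tfeb)* and none was lower. Of all genes, 7.7% were higher and 7.48% lower.

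Licensing and helicase genes were higher in 17 of 24 (70.8%), with a list median log2FC of 1.11. The counts of *mcm4* were 35.4, 40.0 and 25.4 in *mtor* xu015/+ and 555, 492 and 428 in *Tg(cmlc2:tfeb)* (log2FC 3.87, SE 0.24, adjusted p = 1.9e-05). For *mcm6*, another subunit of the same helicase, they were 32.0, 15.8 and 18.8 and 339, 381 and 282 (log2FC 3.92, SE 0.28, adjusted p = 5.1e-05). The lines did not come near each other at either gene. The subunits *mcm5* (2.66) and *mcm2* (1.999) and the GINS complex genes *gins2* (3.81) and *gins4* (2.18), which hold the helicase to the fork, rose with them (log2FC in brackets).

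DNA synthesis and nucleotide supply genes were higher in 26 of 39 (66.7%; median log2FC 1.01). Thymidylate synthase, the enzyme that makes thymidine monophosphate, is encoded by *tyms* (chromosome 7, 71535045 to 71541329), whose counts were 9.95, 10.2 and 10.3 in *mtor* xu015/+ and 265, 335 and 193 in *Tg(cmlc2:tfeb)* (log2FC 4.69, SE 0.27, adjusted p = 1.3e-05). Thymidine kinase 1, *tk1*, salvages the same nucleotide and went from 17.7, 25.1 and 10.3 to 269, 311 and 175 (log2FC 3.82, SE 0.42, adjusted p = 0.00036). The polymerase clamp *pcna* stood at 604, 628 and 579 against 2018, 2269 and 1625 (log2FC 1.71, SE 0.12, adjusted p = 3.5e-05). The ribonucleotide reductase gene *rrm1* (1.43) and the maintenance DNA methyltransferase *dnmt1* (1.42) rose by less on the log2 scale.

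Kinetochore and spindle checkpoint genes, whose products tie chromosomes to microtubules and delay their separation until all are attached, were higher in 34 of 40 (85%; median log2FC 2.45). Counts of the checkpoint kinase gene *bub1* were 11.05, 7.43 and 6.57 and 89.8, 123 and 95.3 (log2FC 3.61, SE 0.30, adjusted p = 0.00011). For *ndc80*, the microtubule contact of the kinetochore, they were 15.5, 16.7 and 18.8 and 129.9, 206 and 113 (log2FC 3.13, SE 0.27, adjusted p = 0.00013). In both genes transgenic replicate 2 was the highest library. Also higher were *kntc1* (3.61), *knl1* (3.52), *ska3* (4.13) and the mitotic kinase *plk1* (2.04).

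Condensation, spindle motor and cytokinesis genes were higher in 34 of 39 (87.2%; median log2FC 2.60). Topoisomerase II alpha, encoded by *top2a*, untangles sister chromatids, and its counts went from 102, 85.5 and 62.9 to 858, 1492 and 607 (log2FC 3.57, SE 0.35, adjusted p = 0.00019). Anillin, *anln*, builds the cleavage ring and went from 64.1, 82.7 and 66.7 to 639, 1318 and 527 (log2FC 3.54, SE 0.34, adjusted p = 0.00018). The proliferation marker *mki67* had 93.9, 90.1 and 88.3 against 456, 649.7 and 216 (log2FC 2.28, SE 0.34, adjusted p = 0.00156), with replicate 3 lowest among the transgenic libraries. Condensin subunits *ncapd2* (2.85), *ncaph2* (2.502) and *ncapg* (3.65) were higher as well.

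Cyclins and regulators of the G1 phase were higher in 17 of 46 (37%) and lower in 0. Of the 46, 36 had a positive log2FC (median 0.48), and 29 were not called. Cyclin A2, *ccna2*, which partners the kinases of S phase and mitosis, had 344, 427 and 456 counts against 1662, 1959 and 1625 (log2FC 2.09, SE 0.12, adjusted p = 1.5e-05). Mitotic kinase *cdk1* had 23.2, 29.7 and 12.2 against 254, 597 and 249.9 (log2FC 4.07, SE 0.44, adjusted p = 0.00032). The transcription factor genes *foxm1* (2.21, 7.43 and 4.69 against 69.2, 108 and 39.2) and *e2f1* (0, 2.79 and 2.82 against 38.5, 45.3 and 22.4), which drive mitotic and replication genes, were also called higher, from low counts. The G1 kinase *cdk4* was not called (376, 347 and 423 against 359.9, 356 and 295, adjusted p = 0.381), nor was the cell cycle inhibitor *cdkn1a* (408, 334 and 426 against 484, 668 and 471, adjusted p = 0.219). Repair genes were higher in 17 of 68 (25%) and lower in 2 (2.94%), against 7.7% and 7.48% of all genes. The 2 lower genes were *neil1* and *atr*. The call of *neil1* was lost without *mtor* xu015/+ replicate 3 (log2FC -0.74, adjusted p = 0.0981), without transgenic replicate 2 (log2FC -0.90, adjusted p = 0.0957) or without transgenic replicate 3 (log2FC -0.85, adjusted p = 0.0809), and that of *atr* without *mtor* xu015/+ replicate 3 (log2FC -0.68, adjusted p = 0.0944), without transgenic replicate 1 (log2FC -0.73, adjusted p = 0.0847) or without transgenic replicate 2 (log2FC -0.82, adjusted p = 0.0925). Repair genes called higher included the Fanconi anaemia genes *fance* (1.17) and *fanci* (2.84) and the checkpoint kinase *chek1* (3.05).

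Set beside WT, the mitotic lists stood out in the transgenic libraries. Averaged over the condensation list, log2 counts of the *Tg(cmlc2:tfeb)* libraries were 2.233, 2.758 and 1.76 above the WT mean, and those of *mtor* xu015/+ were 0.092, 0.034 and -0.068 from it. For the licensing list the transgenic values were 1.382, 1.503 and 1.247, and the heterozygous ones -0.124, -0.173 and -0.288. Transgenic replicate 3 was the lowest and replicate 2 the highest of its line in all 4 lists. Erythroid markers moved in the same direction between the lines, as given below, and their part in the rise of cell cycle genes was not tested.

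**Figure D2:**
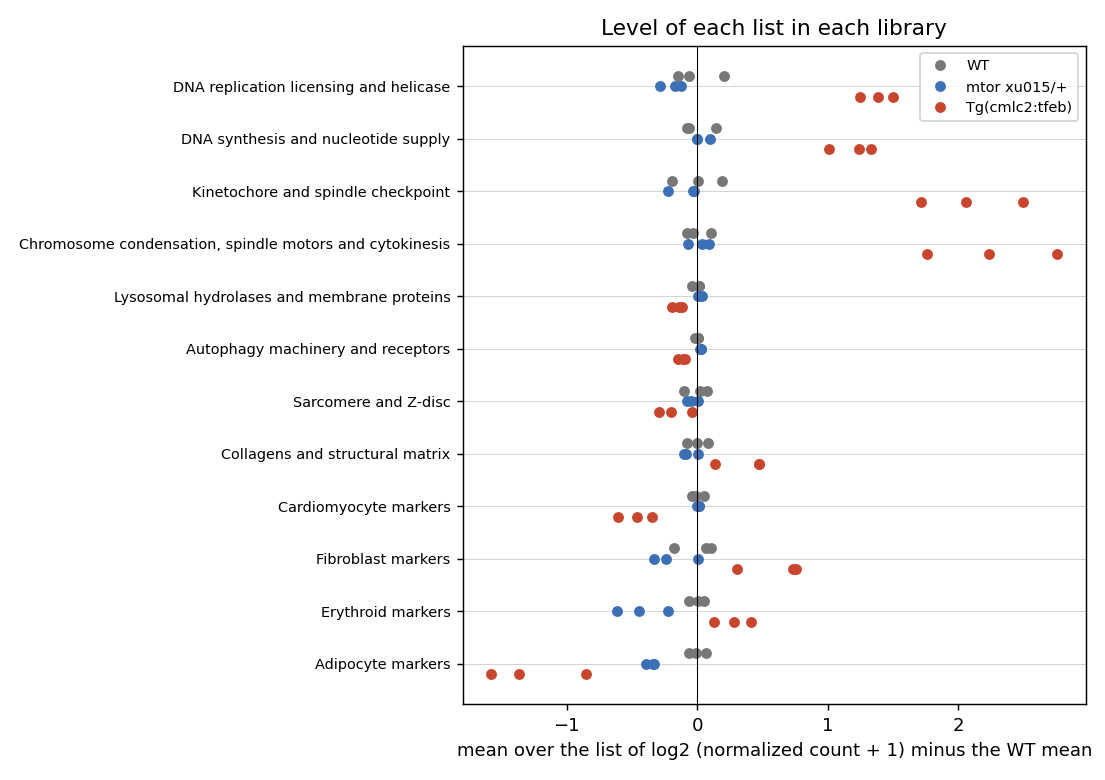
Each point is 1 library, placed by the mean over the named list of its log2 (normalized count + 1) minus the WT mean (x), for 8 pathway lists and 4 lists of cell type markers (y). The *Tg(cmlc2:tfeb)* libraries lie 1.007 to 2.758 above WT in the 4 replication and mitosis lists, while lysosome and autophagy lists stay within 0.2 of it in every library.

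Lysosome and autophagy genes, the known targets of TFEB, were then examined. Lysosomal hydrolases and membrane proteins held 12 DEGs among 81 tested, with 2 that rose in the transgenic line and 10 that fell (2.47% and 12.3%, against 7.7% and 7.48% of all genes; median log2FC -0.15). Arylsulfatase B, encoded by *ARSB*, removes sulfate from matrix glycans, and its counts were 380.1, 379 and 389 in *mtor* xu015/+ and 194, 191 and 212 in *Tg(cmlc2:tfeb)* (log2FC -0.95, SE 0.08, adjusted p = 0.00013). The sulfatase activator *sumf1* had 202, 213 and 178 against 59.8, 81.0 and 98.6 (log2FC -1.32, SE 0.18, adjusted p = 0.00124). The peptidase gene *dpp7* (-0.83) and the fucosidase gene *fuca2* (-0.61) were also called lower (log2FC in brackets), the latter with its fold below the threshold without *mtor* xu015/+ replicate 1 (log2FC -0.56, adjusted p = 0.00622) or without transgenic replicate 1 (log2FC -0.58, adjusted p = 0.00672).

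The members that rose were *tmem192*, a lysosomal membrane protein gene, with 180.1, 161 and 163 against 280.4, 306 and 319 counts (log2FC 0.84, SE 0.10, adjusted p = 0.00067), and the serine carboxypeptidase *scpep1*, with 641, 626 and 688 against 957, 1033 and 1112 (log2FC 0.67, SE 0.08, adjusted p = 0.00072). Of the classic lysosomal genes, cathepsin L *ctsla* (log2FC -0.598, adjusted p = 0.00623) and acid alpha-glucosidase *gaa* (log2FC -0.752, adjusted p = 0.0445) were called lower. The call of *ctsla* was lost in 2 of 9 fits that left out a library, and that of *gaa* in 7. The genes *lamp1b*, *ctsd* and *mcoln1a* did not pass the thresholds. The membrane glycoprotein *lamp1b* had 1723, 2081 and 1882 against 1706, 1710.4 and 1634 (adjusted p = 0.167), cathepsin D *ctsd* had 3768, 4005 and 4351 against 3247, 3495 and 3475 (adjusted p = 0.0567), and the calcium channel *mcoln1a* had 261, 285 and 254 against 287, 287 and 333 (adjusted p = 0.23). Of the 25 v-ATPase subunits tested, which acidify the lysosome, only *atp6v1ab* was called, and it was higher (log2FC 0.79, SE 0.20, adjusted p = 0.0209). That call was lost without *mtor* xu015/+ replicate 3 (log2FC 0.68, adjusted p = 0.0711) or without transgenic replicate 3 (log2FC 0.60, adjusted p = 0.0636).

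Autophagy machinery held 6 DEGs among 79, with 1 higher (1.27%) and 5 lower (6.33%), shares below the 7.7% and 7.48% of all genes (median log2FC -0.17). *gabarapb*, a ubiquitin-like protein gene of the growing autophagosome, had 6681, 6924 and 6739 counts in *mtor* xu015/+ and 4272, 4466 and 4777 in *Tg(cmlc2:tfeb)* (log2FC -0.59, SE 0.07, adjusted p = 0.00047). The cargo receptor *sqstm1*, known as p62, had 4079.8, 3401 and 4161 against 2445, 2627 and 2369 (log2FC -0.65, SE 0.09, adjusted p = 0.00123). WT libraries lay between the lines at both genes, at 6013, 5955 and 5825 and 3279, 3231 and 3378. The lipid transfer protein gene *ATG2A* (-0.69), *atg16l2* (ENSDARG00000109384, -0.87) and the starting kinase *ulk2* (-0.60) were lower too, and *map1lc3cl* was higher (12.2, 15.8 and 18.8 against 22.2, 70.5 and 35.9). Another entry named *atg16l2* (ENSDARG00000043238) was not called (log2FC 0.03, adjusted p = 0.948). The fold of *gabarapb* lay close to the threshold, and its call was lost without *mtor* xu015/+ replicate 2 (log2FC -0.57, adjusted p = 0.00222), without transgenic replicate 1 (log2FC -0.55, adjusted p = 0.00211) or without transgenic replicate 2 (log2FC -0.58, adjusted p = 0.00374). The call of *ulk2* was lost without *mtor* xu015/+ replicate 3 (log2FC -0.35, adjusted p = 0.0629), without transgenic replicate 1 (log2FC -0.52, adjusted p = 0.1), without transgenic replicate 2 (log2FC -0.59, adjusted p = 0.0855) or without WT replicate 2 (log2FC -0.60, adjusted p = 0.05), and that of *map1lc3cl* in 7 of 9 fits that left out a library, where the log2FC lay between 0.89 and 1.604. *sqstm1* and *ATG2A* stayed called in all 9 fits that left out a library.

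Other core members did not reach a 1.5-fold difference. *becn1*, of the complex that starts the autophagosome, had 442, 461 and 505 against 392, 354 and 393 counts (log2FC -0.31, adjusted p = 0.027). *map1lc3b*, encoding LC3B, had 3096, 3414 and 3644 against 2849, 2778 and 2954 (log2FC -0.24, adjusted p = 0.0492). *ulk1b* had 1049, 1060 and 834 against 935, 926 and 917 (log2FC -0.08, adjusted p = 0.617). RNA levels do not measure the flow of cargo through autophagy.

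In the list of mTOR complexes and regulators, 2 of 68 were higher (2.94%) and 5 lower (7.35%), against 7.7% and 7.48% of all genes. The translation repressors that mTOR phosphorylates were among the lower genes. Counts of *eif4ebp3* were 524, 553 and 563 and 303, 305 and 300.4 (log2FC -0.85, SE 0.07, adjusted p = 0.00012), and those of *eif4ebp3l* were 4534, 4111 and 6421 and 1658, 2065 and 2126 (log2FC -1.37, SE 0.17, adjusted p = 0.00069). The GTPase *rheb*, the direct activator of mTOR, had 141, 119.8 and 143 against 81.2, 73.2 and 84.1 (log2FC -0.76, SE 0.14, adjusted p = 0.00524), and *akt2l* had a log2FC of -0.88. *wdr59*, of a complex that relays amino acid levels, and *prr5a*, of mTOR complex 2, were higher (log2FC 0.62 and 2.06), though *wdr59* fell below the fold threshold without *mtor* xu015/+ replicate 2 (log2FC 0.56, adjusted p = 0.00426). The scaffold of mTOR complex 1, *rptor*, had 505, 550 and 431 against 693, 766 and 688, below the fold threshold (log2FC 0.53, adjusted p = 0.00592), and *rictora* had 786, 787 and 621 against 781, 678 and 622 (adjusted p = 0.694).

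Of the 9 genes tested in the list of the TFEB family and its folliculin partners, only *tfeb* itself and the coactivator *ppargc1a* were called. *tfe3a* had 188, 191 and 141 counts against 268, 241 and 231 (log2FC 0.51, adjusted p = 0.0286), and *flcn* had 549, 609 and 649.8 against 619.8, 644 and 593 (adjusted p = 0.799). *rragd*, the Rag GTPase gene that TFEB is known to induce in mammals, had 1796, 1724 and 1567 against 2032, 2772 and 2459 without overlap, but its log2FC of 0.51 stayed under the fold threshold. *ppargc1a*, a regulator of mitochondrial genes, was higher (log2FC 0.67, SE 0.22, adjusted p = 0.0495), a call lost in 7 of 9 fits that left out a library, where the log2FC lay between 0.49 and 0.77.

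**Figure D3:**
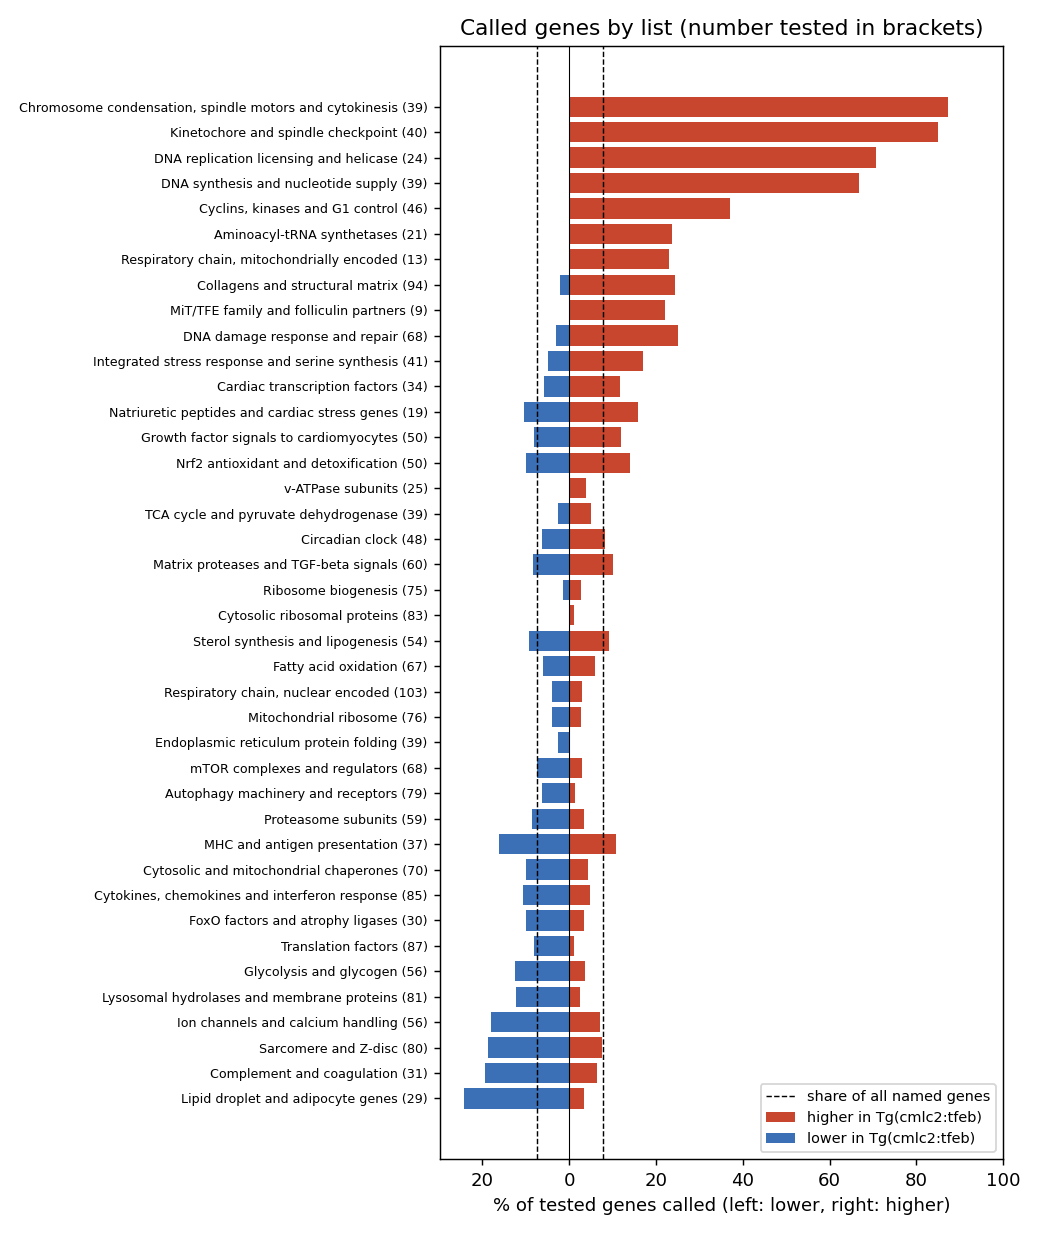
For each pathway list (y, number of genes tested in brackets), red bars to the right give the share of tested genes that were DEGs higher in *Tg(cmlc2:tfeb)* and blue bars to the left the share that were lower (x, %), with dashed lines at the shares of all named genes, 7.7% and 7.48%. The condensation (87.2%) and kinetochore (85%) lists lie far to the right, and lipid droplet and adipocyte genes (24.1%) furthest to the left.

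Genes of the contractile apparatus were lower more often than higher in the transgenic line. Of 80 sarcomere and Z-disc genes, 15 (18.8%) were lower and 6 (7.5%) higher, against 7.48% and 7.7% of all genes. The list median log2FC was -0.22. *ldb3b*, which encodes the Z-disc protein also called cypher, had 92138, 97679 and 96298 counts in *mtor* xu015/+ and 48762, 48735 and 50163 in *Tg(cmlc2:tfeb)*, a tight 1.94-fold difference (log2FC -0.95, SE 0.06, adjusted p = 2.7e-05). *cmlc1*, a cardiac myosin light chain gene, had 598117, 636080 and 713112 against 399353, 343997 and 316761 (log2FC -0.88, SE 0.11, adjusted p = 0.00082). The cardiac myosin heavy chain *myh7* fell from 12989.9, 22054 and 29163 to 5948, 3881 and 4612 (log2FC -2.15, SE 0.30, adjusted p = 0.00126), and titin cap, *tcap*, from 4311, 6889 and 9968 to 928, 1808 and 2357 (log2FC -2.06, SE 0.36, adjusted p = 0.00338). The LIM domain genes *fhl1a* (-0.95) and *pdlim5a* (-0.79) fell as well (log2FC in brackets).

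The sarcomere genes that rose included *myoz2a*, *tnni1d* and *tnni1c*. Calsarcin, encoded by *myoz2a*, joins calcineurin to the Z-disc, and its counts were 448, 158 and 231 against 1981, 2159 and 1437 (log2FC 2.75, SE 0.34, adjusted p = 0.00063). The troponin I genes *tnni1d* (11.05, 7.43 and 17.8 against 367, 273 and 79.6) and *tnni1c* (66.3, 27.9 and 40.4 against 543, 240.4 and 225) rose with the highest value in transgenic replicate 1. Among the transgenic libraries, that one also held most of the *myh6* counts, with 46764, 7774 and 3938 in the transgenic and 6707, 5633 and 8923 in the heterozygous libraries, and *myh6*, the atrial myosin of zebrafish, was not called (adjusted p = 0.278). Without transgenic replicate 1, *tnni1d* had a log2FC of 3.86 (adjusted p = 0.00237) and *tnni1c* of 2.39 (adjusted p = 0.00209).

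The cardiomyocyte marker list was examined next. Its 13 tested markers had enough counts to be tested, so their presence is no check of the tissue. Their summed normalized count ran from 3467320 to 3720580 in *mtor* xu015/+ and from 2629740 to 3037820 in *Tg(cmlc2:tfeb)*. The lines did not overlap in this sum. Of the 13, 2 were called lower (15.4%, against 7.48% of all genes), *ldb3b* and *cmlc1*, and 12 had a negative log2FC (median -0.38). *myl7*, the gene whose promoter is named *cmlc2*, had 672448, 755007 and 738325 counts against 560934, 591241 and 770941 and was not called (log2FC -0.17, adjusted p = 0.315). Cardiac troponin T, *tnnt2a*, was 190258, 233034 and 254003 in *mtor* xu015/+ and 226637, 41999.5 and 44694 in *Tg(cmlc2:tfeb)*, which put transgenic replicate 1 with the other line and the remaining pair far below (adjusted p = 0.178). The natriuretic peptide *nppa*, a marker of cardiac strain, was below the fold threshold, at 74035, 54237 and 75167 against 48960.2, 42351 and 48570.4 (log2FC -0.54, adjusted p = 0.0348), and *nppb* was 4038, 2389 and 2661 against 2884, 1249 and 1721 (adjusted p = 0.202).

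Channels and calcium handling genes were lower in 10 of 56 (17.9%) and higher in 4 (7.14%), against 7.48% and 7.7% of all genes. Their median log2FC was 0.001, and 28 of the 56 had a positive log2FC. The pacemaker channel *hcn4*, which carries the current that starts the heartbeat, fell from 659, 909 and 597 to 92.3, 97.5 and 139 (log2FC -2.73, SE 0.21, adjusted p = 7.9e-05), and its relative *hcn2b* from 4114, 5229 and 5384 to 1556, 2106 and 2634 (log2FC -1.23, SE 0.19, adjusted p = 0.00223). The junctophilin *jph1b*, which holds calcium stores close to the cell membrane, fell from 665, 624 and 579 to 262, 261 and 189 (log2FC -1.38, SE 0.14, adjusted p = 0.0002). Calsequestrin *casq1b*, a calcium store protein gene, was lower as well (log2FC -1.07). The potassium channel *kcnh2a* was higher, with 48.6, 44.6 and 31.9 against 235, 189 and 88.5 (log2FC 2.04, SE 0.33, adjusted p = 0.00261), again with its highest value in transgenic replicate 1.

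Among cardiac transcription factors, 4 of 34 (11.8%) were higher and 2 (5.88%) lower, against 7.7% and 7.48% of all genes. *mef2ca*, a regulator of muscle gene expression, rose from 4526, 4977 and 4607 to 8016, 9377 and 7762 (log2FC 0.83, SE 0.09, adjusted p = 0.00034). *irx4a*, a ventricular factor, fell from 192, 172 and 178 to 88.0, 58.4 and 58.3 (log2FC -1.40, SE 0.26, adjusted p = 0.00511). *tbx2b*, which restrains chamber genes, had 210, 170 and 187 against 632, 392 and 267 (log2FC 1.19, SE 0.32, adjusted p = 0.024), a call lost without *mtor* xu015/+ replicate 1 (log2FC 1.27, adjusted p = 0.0528), without *mtor* xu015/+ replicate 2 (log2FC 1.12, adjusted p = 0.0741), without *mtor* xu015/+ replicate 3 (log2FC 1.18, adjusted p = 0.069) or without transgenic replicate 1 (log2FC 0.81, adjusted p = 0.0684). Transgenic replicate 1 was highest of its line for the atrial factor *nr2f1a* (564, 324 and 262, against 159, 108 and 169.9 in *mtor* xu015/+), whose call was lost without *mtor* xu015/+ replicate 1 (log2FC 1.47, adjusted p = 0.0554), without *mtor* xu015/+ replicate 2 (log2FC 1.22, adjusted p = 0.0764) or without transgenic replicate 1 (log2FC 1.02, adjusted p = 0.0699).

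In the list of natriuretic peptides and cardiac stress genes, 3 of 19 (15.8%) were higher and 2 (10.5%) lower. The shares of all genes were 7.7% and 7.48%. The natriuretic peptide receptor gene *npr1a* rose from 56.4, 46.5 and 71.4 to 127, 111 and 88.5 (log2FC 0.91, SE 0.21, adjusted p = 0.0119), and its relative *npr1b* from 47.5, 51.1 and 26.3 to 348, 167 and 86.3 (log2FC 2.27, SE 0.47, adjusted p = 0.00774), with the highest value in transgenic replicate 1. FoxO factors and atrophy ligases were lower in 3 of 30 (10%) and higher in 1 (3.33%), against 7.48% and 7.7% of all genes. The atrophy ligase *fbxo32* had 1956, 2041 and 3038 against 1219, 1187 and 1243 (log2FC -0.95, SE 0.21, adjusted p = 0.0101).

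Of 50 growth factor genes, 6 (12%) were higher and 4 (8%) lower, against 7.7% and 7.48% of all genes. Platelet-derived growth factor *pdgfbb* rose from 335, 378 and 464 to 774, 703 and 785 (log2FC 0.94, SE 0.12, adjusted p = 0.00069), and the insulin-like growth factor receptor *igf1ra* from 422, 429 and 334 to 719.8, 619 and 655 (log2FC 0.75, SE 0.12, adjusted p = 0.00205). The neuregulin receptor *erbb4b* fell from 148, 99.4 and 109 to 76.1, 48.8 and 59.4 (log2FC -0.95, SE 0.22, adjusted p = 0.0136), and without transgenic replicate 2 its log2FC was -0.80 (adjusted p = 0.0512).

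**Figure D4:**
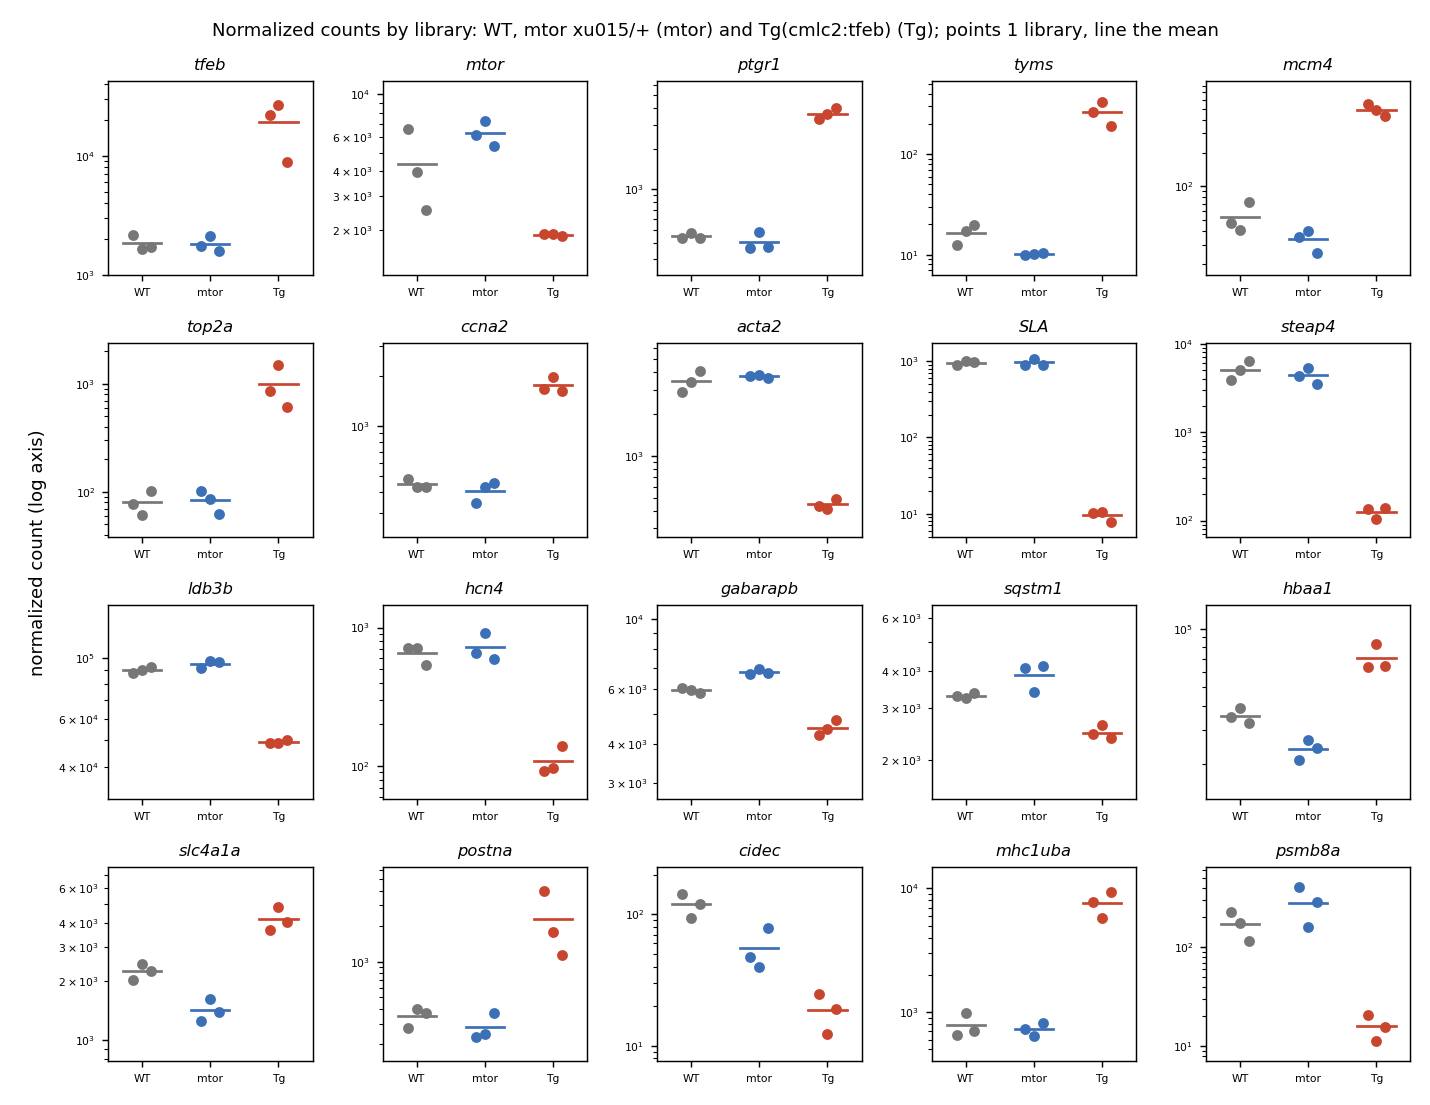
Normalized counts (y, log axis) of 20 genes in each library of WT, *mtor* xu015/+ and *Tg(cmlc2:tfeb)* (x), with 1 point per library and a line at the mean of the 3. The transgenic libraries lie apart from the *mtor* xu015/+ libraries in every panel, and the latter overlap WT in all panels but *tyms*, *mcm4*, *gabarapb*, *sqstm1*, *hbaa1*, *slc4a1a* and *cidec*.

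Red blood cell genes were higher more often than lower in the transgenic line. Zebrafish erythrocytes keep their nucleus and their RNA, so blood left in a ventricle is seen in its transcriptome. Of 17 erythroid markers tested, 10 (58.8%) were higher in *Tg(cmlc2:tfeb)* and 1 (5.88%), *tspo*, was lower (median log2FC 0.68). The shares of all genes were 7.7% and 7.48%. Over the erythroid list, the median log2FC against WT was -0.50 for *mtor* xu015/+ and 0.079 for *Tg(cmlc2:tfeb)*. Alpha globin *hbaa1* had 21041, 26675 and 24192 counts in *mtor* xu015/+, 35124, 38744 and 32574 in WT and 63671, 82839 and 63784 in *Tg(cmlc2:tfeb)* (log2FC 1.55, SE 0.13, adjusted p = 0.00012). The anion exchanger *slc4a1a*, a membrane protein of red cells, followed the same order, with 1249.8, 1625 and 1394, 2039, 2472 and 2251 and 3650.4, 4831 and 4023 (log2FC 1.55, SE 0.13, adjusted p = 0.00013). *alas2*, the first enzyme of heme synthesis in red cells, had 1146, 1948 and 1715 against 3178, 3968 and 3642 (log2FC 1.16, SE 0.18, adjusted p = 0.00174).

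The transferrin receptor *tfr1a*, through which red cell precursors take up iron, showed a larger difference than the globin, with 1390.2, 1775 and 945 against 6381, 5862 and 6953 (log2FC 2.22, SE 0.20, adjusted p = 0.00014). In contrast, the erythroid factor *gata1a* had 206, 282 and 252 against 279, 298 and 271 and was not called (adjusted p = 0.287), and neither was *nt5c2l1* (1462, 2387 and 1709.8 against 1996, 1919 and 2173, adjusted p = 0.605). Summed over the list, normalized counts ran from 100837 to 128234 in *mtor* xu015/+, from 157436 to 176919 in WT and from 205358 to 261838 in *Tg(cmlc2:tfeb)*. Globin genes are near-identical copies of each other, so the split of reads between them is uncertain. The erythroid list counts such copies as separate markers, so its share of 58.8% does not rest on 17 unrelated genes.

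Matrix genes were higher more often than lower in the transgenic line. Collagens and structural matrix genes held 23 of 94 (24.5%) that were higher and 2 (2.13%) that were lower, against 7.7% and 7.48% of all genes. The list median log2FC was 0.31. Periostin, which marks activated fibroblasts and heart valves, has 2 genes in zebrafish. Counts of *postnb* were 320.5, 671 and 571 against 1677, 2435 and 2328 (log2FC 2.04, SE 0.25, adjusted p = 0.00057), and those of *postna* were 231, 245 and 371 against 3975, 1774 and 1144 (log2FC 3.02, SE 0.43, adjusted p = 0.00126). Transgenic replicate 1 was the highest for *postna*, whose log2FC without it was 2.38 (adjusted p = 0.00081). The basement membrane genes *nid1a* (1919, 1786 and 2255 against 4732, 4926 and 4204, log2FC 1.22, SE 0.11, adjusted p = 0.00017) and *hspg2*, perlecan (2679, 2602 and 2043 against 4534, 4886 and 4404, log2FC 0.92, SE 0.12, adjusted p = 0.00086), rose without overlap. Fibronectin *fn1a* had 305, 229 and 312 against 919.9, 978 and 462 (log2FC 1.48, SE 0.26, adjusted p = 0.00343).

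Fibrillar collagen I changed less. *col1a2* had 4534, 4500 and 5009 against 7270.1, 8179 and 6071 (log2FC 0.62, SE 0.11, adjusted p = 0.00384) and *col1a1b* 6309.8, 5951 and 5932 against 9135, 11381 and 8001 (log2FC 0.65, SE 0.13, adjusted p = 0.00584), and both calls were lost without transgenic replicate 2, where the log2FC fell to 0.52 and 0.50. *col1a1a* stayed under the fold threshold, at 4353, 3867 and 4720.1 against 6413, 7076 and 5125 (log2FC 0.52, adjusted p = 0.0133). Of 11 fibroblast markers tested, 5 (45.5%) were higher and 0 lower, against 7.7% and 7.48% of all genes. Collagen I and periostin genes given above are among these markers, so this list overlaps the matrix genes. Summed counts of these markers ran from 22295 to 25126 in *mtor* xu015/+ and from 30606 to 40320.5 in *Tg(cmlc2:tfeb)*, a sum made up mostly of collagen I. The fibroblast receptor *pdgfra* did not follow (1579, 1550.5 and 1591 against 1702, 1505 and 1348, adjusted p = 0.779), nor did decorin, *dcn* (3831, 3115 and 3961 against 5323, 4499 and 3645, adjusted p = 0.225).

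Among matrix proteases and TGF-beta signals, 6 of 60 were higher and 5 lower, near the share of all genes. *ltbp1*, which stores TGF-beta in the matrix, rose from 147, 115 and 82.6 to 614, 448 and 298 (log2FC 1.99, SE 0.29, adjusted p = 0.00137), and the gelatinase *mmp9* from 82.9, 91.0 and 62.9 to 258, 220.3 and 159 (log2FC 1.43, SE 0.23, adjusted p = 0.00261). Of 8 epicardial markers tested, 2 (25%) were higher and 1 (12.5%) lower, against 7.7% and 7.48% of all genes. *tcf21* and *tbx18* were higher (log2FC 0.71 and 0.63) and *podxl* lower (-1.07). The call of *tbx18* was lost without *mtor* xu015/+ replicate 1 (log2FC 0.58, adjusted p = 0.0188) or without transgenic replicate 1 (log2FC 0.52, adjusted p = 0.0112). Summed counts of the epicardial list ran from 35216 to 45646 in *mtor* xu015/+ and from 17435 to 29959 in *Tg(cmlc2:tfeb)*. Mean log2 levels of this list overlapped between the lines. Besides *acta2*, only *lmod1b* among 10 smooth muscle markers was called, also lower (45.3, 54.8 and 45.1 against 28.2, 20.03 and 22.4, log2FC -1.03), and its call was lost in 5 of 9 fits that left out a library, where the log2FC lay between -1.08 and -0.92. *acta2* is also expressed in cells other than smooth muscle. The summed count of the smooth muscle list, which includes *acta2*, was 20227 to 20648 in *mtor* xu015/+ and 13831 to 15986 in *Tg(cmlc2:tfeb)*. The median log2FC of the list was -0.219, and 8 of its 10 tested markers were not called.

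Fat storage genes were lower more often than higher in the transgenic line. Of 29 lipid droplet and adipocyte genes tested, 7 (24.1%) were lower and 1 (3.45%) higher, against 7.48% and 7.7% of all genes. The list median log2FC was -0.245. *cidec*, which fuses lipid droplets in fat cells, had 47.5, 40.0 and 78.9 counts in *mtor* xu015/+ and 24.8, 12.2 and 19.1 in *Tg(cmlc2:tfeb)* (log2FC -1.57, SE 0.35, adjusted p = 0.0107), against 143, 94.2 and 119 in WT. The droplet coat gene *plin2* fell from 130.4, 38.1 and 150.2 to 17.9, 11.3 and 8.97 (log2FC -3.02, SE 0.49, adjusted p = 0.00257), the adipokine *adipoqa* from 89.5, 182 and 150.2 to 40.18, 11.3 and 7.85 (log2FC -2.79, SE 0.50, adjusted p = 0.00386), and lipoprotein lipase *lpl* from 6002, 11407 and 7134 to 2825, 2889 and 4820.3 (log2FC -1.22, SE 0.26, adjusted p = 0.00897). Without transgenic replicate 1 the log2FC of *adipoqa* was -3.83. *apoba*, an apolipoprotein B gene, was the exception, with 0, 0 and 0.94 against 53.0, 63.6 and 33.6 counts.

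*fabp7a*, *bscl2l* and *edn1* did not pass the thresholds. *fabp7a*, a fatty acid binding protein gene, had 117, 68.7 and 109.9 against 65.0, 27.0 and 63.9, did not overlap and missed the threshold (log2FC -0.93, SE 0.33, adjusted p = 0.0661). WT stood higher, at 261, 199 and 207. *bscl2l*, the seipin-like gene, had 111, 136 and 194 against 52.1, 31.4 and 121 with overlap (log2FC -1.14, SE 0.54, adjusted p = 0.158). Endothelin *edn1* had 201, 152 and 84.5 against 198, 175 and 113 (log2FC 0.16, SE 0.40, adjusted p = 0.803). Of the 6 adipocyte markers tested, 3 (50%) were called lower and 0 higher, against 7.48% and 7.7% of all genes. The median log2FC of these markers was -0.80. The lines did not overlap at 5 of these 6 markers, against 41.8% of all genes. Averaged over these markers on the log2 scale of normalized counts, levels differed by -0.391, -0.336 and -0.33 from the WT mean in *mtor* xu015/+ and -0.852, -1.368 and -1.576 in *Tg(cmlc2:tfeb)*. Their counts summed to 11287 to 13810.2 in *mtor* xu015/+ and 9448 to 10394 in *Tg(cmlc2:tfeb)*, a sum made up mostly of *fabp11a*, which was not called (10204, 9918 and 13052 against 7379.5, 8825 and 8407, adjusted p = 0.0998). The part that the number of fat cells in the tissue has in these differences was not tested.

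Fatty acid oxidation (4 of 67 higher, 4 lower), sterol synthesis and lipogenesis (5 of 54 higher, 5 lower), the tricarboxylic acid cycle (2 of 39 higher, 1 lower) and the nuclear respiratory chain (3 of 103 higher, 4 lower) held DEGs in shares near or below those of all genes. The regulator *pparaa* rose from 292, 252 and 317 to 594, 482 and 479.7 (log2FC 0.86, SE 0.12, adjusted p = 0.00134), and the acyl-CoA synthetase *acsl2* fell from 296, 313 and 246 to 81.2, 29.6 and 56.0 (log2FC -2.35, SE 0.33, adjusted p = 0.00115). *ndufaf3*, an assembly factor of complex I, fell from 4060, 5038 and 4697 to 1713, 1539 and 1747 (log2FC -1.46, SE 0.10, adjusted p = 2.7e-05), whereas the complex IV subunits *cox6a1* (0.99) and *cox8a* (0.79) rose.

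Of the 13 genes that mitochondria encode themselves, *mt-nd3*, *mt-nd4l* and *mt-atp8* were called higher (23.1%, against 7.7% of all genes). Counts of *mt-nd3*, a complex I subunit, were 39887, 42023 and 35605 against 49927, 59322 and 70528 (log2FC 0.61, SE 0.12, adjusted p = 0.00623), with WT at 49721, 52676 and 49845. Its call was lost without *mtor* xu015/+ replicate 3 (log2FC 0.55, adjusted p = 0.0272) or without transgenic replicate 3 (log2FC 0.48, adjusted p = 0.0124), that of *mt-nd4l* without *mtor* xu015/+ replicate 3 (log2FC 0.49, adjusted p = 0.0295) or without transgenic replicate 3 (log2FC 0.49, adjusted p = 0.0279) and that of *mt-atp8* without *mtor* xu015/+ replicate 3 (log2FC 0.77, adjusted p = 0.0562). Mitochondrial ribosome genes were higher in 2 of 76 and lower in 3, among them *mrpl52* (1051, 994 and 1049 against 579.6, 600 and 508, log2FC -0.87, SE 0.08, adjusted p = 0.00019).

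Glycolysis and glycogen genes were lower in 7 of 56 (12.5%) and higher in 2 (3.57%), against 7.48% and 7.7% of all genes. Their median log2FC was 0.079, and 33 of the 56 had a positive log2FC. *gapdh*, among the genes with the highest counts, had 938946, 937717 and 925907 counts against 524141, 504109 and 596260 (log2FC -0.79, SE 0.09, adjusted p = 0.00053). The 2 gene copies of triose phosphate isomerase went in opposite directions. *tpi1b* fell from 37529, 43227 and 38164 to 23088, 23681 and 24943 (log2FC -0.73, SE 0.08, adjusted p = 0.00036). *tpi1a*, with lower counts, rose from 655, 682 and 728 to 1293, 1419 and 1680 (log2FC 1.09, SE 0.10, adjusted p = 0.00018). Muscle glycogen phosphorylase *pygma*, which releases glucose from glycogen, rose from 1471, 1772 and 1366 to 6618, 5684 and 4251 (log2FC 1.84, SE 0.16, adjusted p = 0.00012). The regulators of phosphofructokinase *pfkfb1* (-2.59) and *pfkfb3* (-0.85) were lower.

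Immune genes moved both ways. Class I MHC genes present peptides that the immunoproteasome cuts and the TAP transporter carries. Of 37 genes of this list, 4 (10.8%) were higher and 6 (16.2%) lower, against 7.7% and 7.48% of all genes. *mhc1uba* (chromosome 19, 7072854 to 7101100) rose from 734, 643 and 821 to 7702, 5744 and 9316 (log2FC 3.37, SE 0.21, adjusted p = 2.2e-05), and *mhc1zaa* from 962, 560.2 and 731 to 1476, 1844 and 2049.8 (log2FC 1.25, SE 0.20, adjusted p = 0.00225). In contrast, the immunoproteasome genes *psmb8a* (chromosome 19, 7105838 to 7144548; 404, 159.8 and 284 against 20.5, 11.3 and 15.7, log2FC -4.14, SE 0.42, adjusted p = 0.00024), *psmb13a* (171, 112 and 136 against 17.9, 0 and 10.1), *psmb9a* (66.3, 46.5 and 46.0 against 8.55, 0 and 3.36) and *psmb12* (120.5, 53.9 and 101.4 against 15.4, 0 and 6.72) fell, with at most 20.5 counts in any transgenic library, and the transporter *tap2a* fell too (249, 147 and 203 against 81.2, 26.1 and 35.9). At such counts the size of the fall depends on the library: the log2FC of *psmb9a* was -3.67, and -5.02 without transgenic replicate 1 or -3.07 without replicate 2. All of these genes except *mhc1zaa* lie on chromosome 19. MHC and immunoproteasome genes have near-identical relatives and differ between fish, so the assignment of reads between copies is uncertain.

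Cytokine, chemokine and interferon genes were lower in 9 of 85 (10.6%) and higher in 4 (4.71%), against 7.48% and 7.7% of all genes. Their median log2FC was 0.013, and 44 of the 85 had a positive log2FC. The interferon signal transducer *stat2* fell from 7306, 8108 and 5638 to 1847, 2797 and 2369 (log2FC -1.59, SE 0.18, adjusted p = 0.00036), and *stat3*, which transmits interleukin-6 signals, from 4235, 2944 and 3819.7 to 1876, 1509 and 1647 (log2FC -1.13, SE 0.14, adjusted p = 0.00065). The chemokine *cxcl12b*, which guides vessel and blood cells, fell from 1368, 1318 and 1229 to 521, 712 and 602 (log2FC -1.09, SE 0.18, adjusted p = 0.00275). Of 15 macrophage markers, 3 were lower (*c1qa*, *c1qc* and *marco*) and *mpeg1.2* was higher, while *mpeg1.1* had 171, 116 and 132 against 154, 117 and 133 and was not called (adjusted p = 0.906). The calls of *c1qa*, *c1qc* and *marco* were lost in 5, 4 and 4 of the 9 fits that left out a library. The granule genes *nkl.1* (17.7, 10.2 and 17.8 against 139, 82.7 and 66.1) and *nkl.4* (3.32, 7.43 and 7.51 against 34.2, 41.8 and 49.3), among the 14 T and NK cell markers tested, rose from low counts.

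Complement and coagulation genes were lower in 6 of 31 (19.4%) and higher in 2 (6.45%), against 7.48% and 7.7% of all genes. Their median log2FC was 0.065, and 16 of the 31 had a positive log2FC. The complement component *c4b* fell from 1498, 1370.2 and 2186 to 708, 647 and 722 (log2FC -1.28, SE 0.16, adjusted p = 0.00079), and both genes of the C1q complex named above are members too. Plasminogen, *plg*, rose from 13.3, 10.2 and 12.2 to 50.4, 55.7 and 24.7 (log2FC 1.87, SE 0.35, adjusted p = 0.00496).

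Markers of further cell types came in short lists. Of all genes, 7.7% were higher and 7.48% lower. Of 17 endothelial markers only *flt1*, a VEGF receptor, was called (1918, 2142 and 2443 against 1474, 1442 and 1391, log2FC -0.59, SE 0.11, adjusted p = 0.00414). Its call was lost without *mtor* xu015/+ replicate 3 (log2FC -0.50, adjusted p = 0.0143) or without transgenic replicate 3 (log2FC -0.58, adjusted p = 0.0152). Of 8 endocardial markers 1 was higher (12.5%) and 1 lower (12.5%), and of 8 pericyte markers 1 was higher (12.5%) and 2 lower (25%). Of 11 neutrophil markers 1 was higher (9.09%) and 2 lower (18.2%). None of 8 thrombocyte, 10 B cell, 12 Schwann cell and neuron and 2 germ line markers was called. Markers of tissues that lie near the heart or are not part of it were called too. Higher were 2 of 8 liver (25%), 2 of 8 gill and skin (25%) and 2 of 13 skeletal muscle genes (15.4%). Lower were 1 gill and skin (12.5%) and 1 skeletal muscle gene (7.69%). The muscle creatine kinase *ckmb* had 662, 792 and 403 against 2572, 5983 and 4294 counts (log2FC 2.79, SE 0.34, adjusted p = 0.00058), and the fast skeletal troponin T *tnnt3b* 28.7, 18.6 and 19.7 against 83.8, 88.8 and 57.2 (log2FC 1.78, SE 0.33, adjusted p = 0.00464). The part of tissue carried over at dissection in these differences was not tested.

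Genes that charge tRNAs and supply amino acids rose in part. Of 21 aminoacyl-tRNA synthetases tested, 19 had a positive log2FC (median 0.38). Called higher were 5 (23.8%) and lower 0, against 7.7% and 7.48% of all genes. Besides *aars1*, these were *qars1* (0.65), *mars1* (0.65), *sars1* (0.59) and *WARS1* (0.82), and the call of *sars1* was lost without *mtor* xu015/+ replicate 1 (log2FC 0.58, adjusted p = 0.0166), without *mtor* xu015/+ replicate 2 (log2FC 0.57, adjusted p = 0.0158) or without transgenic replicate 3 (log2FC 0.52, adjusted p = 0.0131). In the list of the integrated stress response and serine synthesis, 7 of 41 (17.1%) were higher and 2 (4.88%) lower. The median log2FC of this list was 0.013, and 22 of the 41 had a positive log2FC. Serine hydroxymethyltransferase *shmt1*, which passes carbon from serine to nucleotide synthesis, rose from 78.5, 62.2 and 59.1 to 333, 376 and 268 (log2FC 2.29, SE 0.17, adjusted p = 6.8e-05). *psat1*, an enzyme of serine synthesis, rose from 154, 149.6 and 184 to 343, 314 and 334 (log2FC 1.02, SE 0.12, adjusted p = 0.00049), and mitochondrial *mthfd2* from 309, 464 and 393 to 747, 883 and 926 (log2FC 1.13, SE 0.17, adjusted p = 0.002). A factor that drives these genes under stress, *atf4a*, had 7475, 5761 and 6776 against 6496, 5687 and 6282 and was not called (adjusted p = 0.486). *atf5a* (log2FC 1.08, adjusted p = 0.00314) and *atf3* (log2FC 1.45, adjusted p = 0.0257) were called higher. The call of *atf3* was lost in 5 of 9 fits that left out a library.

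Other protein synthesis lists held few DEGs. Of 83 cytosolic ribosomal protein genes, only *rpl22l1* was called (2076, 1880.2 and 2238 against 3691, 3768 and 3552, log2FC 0.83, SE 0.08, adjusted p = 0.00019), and the list median was 0.014. Ribosome biogenesis held 2 higher and 1 lower of 75. Translation factors were lower in 7 of 87 (8.05%, near the 7.48% of all genes) and higher in 1. Those lower included *pabpc1b* (21463, 22963 and 26719 against 13561, 12802 and 15457, log2FC -0.77, SE 0.11, adjusted p = 0.0014) and *eif3hb* (log2FC -1.03), besides both 4E-BP genes given above.

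Antioxidant and detoxification genes were higher in 7 of 50 (14%) and lower in 5 (10%), against 7.7% and 7.48% of all genes. Besides *ptgr1*, glutathione transferase *gsto2* rose from 286, 271 and 218 to 639, 742 and 517 (log2FC 1.29, SE 0.15, adjusted p = 0.00049) and thioredoxin *txn* from 116, 150.5 and 107 to 252, 289 and 211 (log2FC 1.01, SE 0.17, adjusted p = 0.00274), while *gsta.2* fell from 148, 105 and 159.6 to 28.2, 49.6 and 25.8 (log2FC -1.98, SE 0.29, adjusted p = 0.0014). The glutathione synthesis gene *gclc*, a target of Nrf2, had 698, 730.2 and 694 against 701, 703 and 677 (adjusted p = 0.801).

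Chaperones were lower in 7 of 70 (10%) and higher in 3 (4.29%), against 7.48% and 7.7% of all genes. *bag3*, the co-chaperone gene of chaperone-assisted autophagy and the cardiomyopathy gene of the study, had 2170.3, 2678 and 2484 counts in *mtor* xu015/+ and 1215, 1432 and 1802 in *Tg(cmlc2:tfeb)* (log2FC -0.72, SE 0.20, adjusted p = 0.0281), against 2366, 2473 and 3812 in WT. Its call was lost without *mtor* xu015/+ replicate 2 (log2FC -0.65, adjusted p = 0.081), without *mtor* xu015/+ replicate 3 (log2FC -0.71, adjusted p = 0.0708), without transgenic replicate 1 (log2FC -0.59, adjusted p = 0.0863) or without transgenic replicate 2 (log2FC -0.69, adjusted p = 0.0858). The small heat shock gene *hspb11* had 19838, 22397 and 19359.5 against 12372, 11501 and 13262 (log2FC -0.73, SE 0.13, adjusted p = 0.00416), whereas *hspa8b* rose from 135, 136 and 164 to 312, 308 and 288 (log2FC 1.06, SE 0.13, adjusted p = 0.00061). Folding enzymes of the endoplasmic reticulum held a single DEG among 39, the stress sensor *ern2* (557, 502 and 555 against 398, 370.1 and 299, log2FC -0.59), a call lost without *mtor* xu015/+ replicate 1 (log2FC -0.57, adjusted p = 0.0184), without *mtor* xu015/+ replicate 3 (log2FC -0.57, adjusted p = 0.0185) or without transgenic replicate 3 (log2FC -0.49, adjusted p = 0.009).

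In the proteasome list, 2 of 59 genes (3.39%) were higher and 5 (8.47%) lower, against 7.7% and 7.48% of all genes. Outside the immunoproteasome, *psmd2* rose from 2216, 2483 and 2315 to 3874, 4178 and 4579 (log2FC 0.85, SE 0.08, adjusted p = 0.00019). The list also holds *psmc3ip*, higher in *Tg(cmlc2:tfeb)*, which is a recombination cofactor and not a subunit. Clock genes were higher in 4 of 48 (8.33%) and lower in 3 (6.25%), near the 7.7% and 7.48% of all genes. *per3*, a repressor of the clock, rose from 679.6, 651 and 706 to 1116, 1353 and 1223 (log2FC 0.86, SE 0.09, adjusted p = 0.00022), *cry-dash*, a photolyase relative, fell from 333, 319.6 and 356 to 154, 183 and 182 (log2FC -0.96, SE 0.11, adjusted p = 0.00035), and *nr1d2a* fell from 3023, 4001 and 6594 to 900.2, 813 and 1529.8 (log2FC -2.07, SE 0.44, adjusted p = 0.00931). The hour at which hearts were taken is not given in the sources used here, and its part in clock gene differences was not tested.

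The WT libraries were set beside each difference. The WT mean lay nearer to *mtor* xu015/+ than to *Tg(cmlc2:tfeb)*, on a log2 scale, for 2637 of the 2863 DEGs (92.1%), and nearer to the transgenic line for 226, of which 150 were higher in that line and 76 lower. Among these 226 genes, the insulin-like growth factor binding protein gene *igfbp6b* was 573, 457 and 479.8 in WT, 1233, 1147 and 2416 in *mtor* xu015/+ and 365, 194 and 160.3 in *Tg(cmlc2:tfeb)*. Netrin *ntn1b*, a guidance cue, was 147, 179 and 209 in WT, 465, 489 and 586 in *mtor* xu015/+ and 345, 324 and 232 in *Tg(cmlc2:tfeb)*, so both lines lay above WT and the heterozygous line more so (*mtor* xu015/+ minus WT, log2FC 1.53, adjusted p = 0.0473). Carbonic anhydrase *cahz*, the abundant red cell enzyme, was 3572, 4234 and 3282 in WT, 2304, 2850.1 and 2366 in *mtor* xu015/+ and 4199, 6236 and 4883 in *Tg(cmlc2:tfeb)*. The matrix glycoprotein *sparc* was 3668, 3569.6 and 2946, 2469.8, 2524 and 2869 and 4252, 4336 and 3697 in the same order.

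Position on the genome was examined because alleles near a selected mutation or transgene are inherited with it. Among the nuclear chromosomes, the share of tested genes that were DEGs ranged from 11.2% on chromosome 2 to 21.8% on chromosome 22, with 19.6% on chromosome 8, which carries *mtor*. Within 5 Mb of *mtor*, 29 of 124 genes (23.4%) were DEGs, 13 higher and 16 lower, against 121 of 643 (18.8%) on the rest of that chromosome. The DEGs of this window with the smallest p were *fahd2a*, given above, *ubap2b* (8341, 7623 and 7932 against 3320.4, 3674 and 3508, log2FC -1.19, SE 0.08, adjusted p = 3.9e-05) and *zgc:154046* (4862, 4529.7 and 4973 against 917, 503 and 553, log2FC -2.86, SE 0.21, adjusted p = 6.4e-05). At these 3 genes WT lay between the lines and nearer to *mtor* xu015/+, for example at 7297, 6267 and 6521 for *ubap2b*. These shares are descriptions, and the position at which the transgene was inserted is not given in the sources used here.

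**Figure D5:**
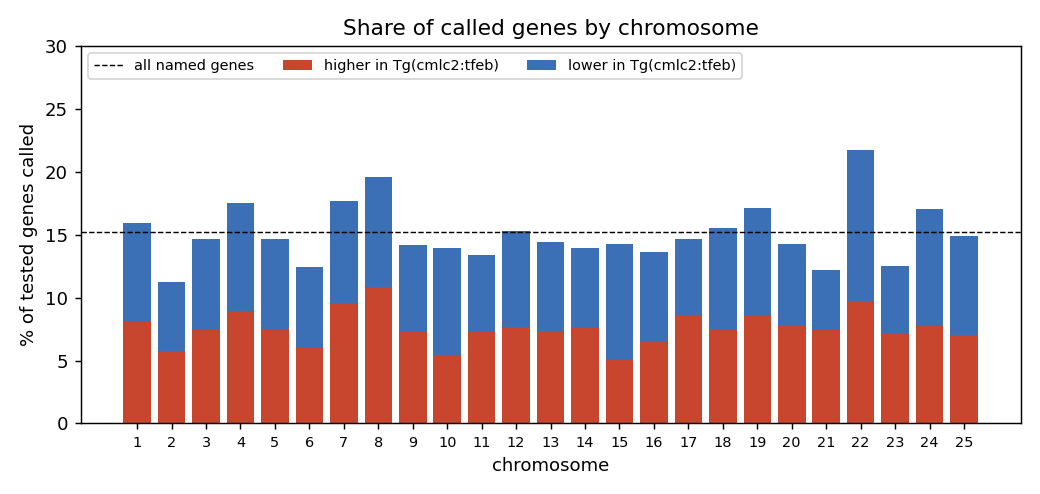
The share of tested named genes that were DEGs (y, %) on each of the 25 nuclear chromosomes (x), stacked by direction, with a dashed line at 15.2%, the share of all named genes. Chromosomes 22 (21.8%) and 8 (19.6%) are the highest and chromosome 2 (11.2%) the lowest.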

How the data were processed

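RNA was sequenced from pooled ventricles as 50-bp paired-end reads. The submitters' processing notes name bcl2fastq 2.17, Trimmomatic 0.36, STAR 2.5.2b and GRCz11. The authors deposited 1 table of estimated counts (expected counts) per gene and library, with a column suffix of scaledTPM; the tool that made them is not given in the sources used here, and the study's methods describe another aligner. Coordinates are those of that table, on GRCz11. All 9 value columns were matched to samples by name, and 0 were left over.

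Counts were rounded, filtered with filterByExpr, scaled with TMM and tested with edgeR 4.0.16 in R 4.3.3 (glmQLFit, glmQLFTest) over all 9 libraries, with Benjamini-Hochberg adjustment over 21216 genes. SE is the log2FC divided by the square root of F. The study's thresholds, adjusted p under 0.05 and at least 1.5-fold, defined DEGs. In simulated counts for the *Tg(cmlc2:tfeb)* and *mtor* xu015/+ comparison with 20939 genes, 61 of 100 2-fold and 97 of 100 4-fold changes were recovered, with 8 false calls. The simulated spread was set by a formula and not estimated from these libraries. Only 200 genes were changed, none of them with low counts, so these rates need not hold for the real libraries. A single gene tested by exact permutation of 3 against 3 libraries cannot reach p below 0.1, so none was run. Libraries of a group differed by more than counting error, with a chi-square per gene of 12.8 to 77.5.

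The 40 pathway and 20 marker lists and the members were chosen with earlier results of these data known. Genes were named by rule: *tfeb*, *mtor*, *bag3*, *fabp7a*, *bscl2l*, *cidec* and *edn1*; the 10 DEGs with the smallest p each way and the 5 with the largest fold each way, without overlap and without a clone name; up to 6 DEGs per list; DEGs within 5 Mb of *mtor*; defining markers; and members that failed the test, with their values. *mki67*, *plk1*, *neil1*, *atr*, *tspo*, *rheb*, *fn1a*, *sparc*, *tcap*, *tnni1c*, *tap2a* and *erbb4b* were chosen after their values were seen. Replicate numbers were not used to pair libraries. DESeq2 1.42.0, limma 3.58.1, other scalings, filters and thresholds, a replicate block and fits without each library were run as alternatives.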

Additional observations from a re-analysis of the deposited data

Results flagged for a closer look

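Genes without a name or a chromosome in the table were outside the comparison. Of the 2351 such genes that were tested, 541 (23%) passed the same thresholds between the lines, 265 of them higher in the transgenic line and 276 lower. They were singled out because they carry a signal that no comparison above uses, and they cannot be described further by name or place.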

How the results depend on the processing

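The 2863 DEGs became 4539 (2192 higher, 2347 lower) with no fold threshold and 1671 (861 higher, 810 lower) with a 2-fold threshold. At the 2-fold threshold the share of DEGs was 13.7% near *mtor* and 13.8% on chromosome 22. Those shares stand beside 1671 of all 18865 genes, and not beside the 15.2% of all genes at 1.5-fold. Leaving out each library of the lines gave 2241 to 2677 DEGs, 1142 to 1370 higher and 1099 to 1343 lower, and leaving out each WT library, an alternative chosen after seeing the data, 2742 to 2826. Counts under the other scalings, filters, tools and sample sets lay between 2385 and 3029, and upper-quartile scaling moved the split to 1586 higher and 1303 lower. For 366 genes under 20 alternatives, 6835 of 7300 results kept their direction and stayed called or stayed not called. The remaining results were 418 that lost their call, 28 that gained one and 19 that changed sign at genes not called in either fit. With a call, 0 reversed. The 7300 results include genes that were not called in the main fit, so they do not give the share of calls kept.

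A fit with a replicate block gave 2685 DEGs. Deviations of libraries with the same number correlated at 0.0848, -0.0242 and 0.0773 between the lines, so the numbers were not taken as pairs.

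At 3 libraries per line, small changes are easily missed, and pools of 5 ventricles hide the spread between fish. A search of promoters for motifs was not run. Levels of RNA do not give protein or autophagic flux.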
